A study of Homo sapiens with 6 samples.

Results

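The kinetochore genes described here were 36 protein-coding genes that build the human centromere and kinetochore. They were taken from the deposited table by exact match of the gene symbol, and each of the 36 symbols was found once among 61806 genes. RNA-seq of poly(A) RNA was performed on MDA-MB-231 cells, an established human triple-negative breast cancer line, in 3 control samples and 3 samples treated with Parishin B (PB), a phenolic compound from Gastrodia elata, at 20 μM for 24 h. The sample labels name only the group, so the dose comes from the study's methods and the time from its account of the results, the vehicle of the control group is not given, and nothing says whether the samples came from separate cultures. P-values therefore rest at most on the spread between these samples, which may be technical. Those of the edgeR fit, and its standard errors, use a spread pooled over genes and not that of the single gene. The comparison of both groups addresses how PB changes transcript levels in these cells.

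The kinetochore is the protein assembly that links a chromosome to spindle microtubules. Its inner part sits on nucleosomes that carry the histone variant CENPA, which the chaperone HJURP and the MIS18 complex place at centromeres, and consists of the CENP proteins of the constitutive centromere-associated network. Its outer part, made of the KNL1, MIS12 and NDC80 complexes and joined by the SKA complex, holds the microtubule and carries the spindle checkpoint proteins. A fibrous corona of motor and adaptor proteins covers it early in mitosis. Transcripts of many of these genes are known to accumulate late in the cell cycle.

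Total counts lay between 15681655 and 21986948 per sample, and each of the 36 genes had between 57 and 12126 counts in every sample, above the floor of 3 counts (0.136 to 0.191 CPM, counting error only). The libraries of one group were close to each other and far from those of the other, as chi-square values divided by their degrees of freedom were 1.45 to 1.92 within groups and 71.1 to 85.1 between groups. In the whole table, 113 genes were counted 30 times or more in each control library but 3 times or less in each PB library, 1 gene showed the opposite, and 0 of the 36 genes were among them. Of 8 marker genes of the line, 7 had a mean of at least 1 FPKM (counts scaled by exonic length and library total) in both groups, and their summed level was 1123 to 1152 FPKM in control samples and 1032 to 1035 in PB samples, with SPARC as the low one. VIM carried most of this sum (603 FPKM in control and 635 in PB samples, with a fitted log2 fold change of -0.06), while CAV1 went from 71.1 to 34.9 FPKM and TGFBI from 40.9 to 15.8 FPKM. All 8 fell at an adjusted p of at most 0.05 in the edgeR fit described with the results. Of all tested genes, 26.1% did so. For VIM the fall depends on the scaling of that fit, as every PB sample lay above every control sample in FPKM. Of 12 epithelial markers, 5 in control (KRT7, KRT8, KRT18, CDH1 and ELF3) and 4 in PB samples (KRT8, KRT18, CLDN4 and ESRP1) had a mean of at least 1 FPKM. KRT7 went from 44.5 to 0.44 FPKM and ESRP1 from 0.397 to 1.35 FPKM. The sum of the 12 was 441 to 448 FPKM in control samples and 161 to 166 in PB samples, with CDH1 and ELF3 at 0 in a PB sample, and 6 leukocyte markers, none of which reached 1 FPKM, summed to 0.91 to 1.33 and 0.35 to 0.54 FPKM, with PTPRC, CD3E and LYZ at 0 in a sample of each group. Whether the cells of both groups differed in ways other than the treatment was not tested. In bulk RNA, fewer cells of a type and less RNA per cell cannot be told apart, and this touches every result given here.

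For 30 of the 36 genes, the RefSeq promoter table (GRCh38.p14) held the bases before an annotated start. The 100 bases before the start are shown for the 9 genes of which at most 30 of these bases lie in an annotated exon. By fitted fold change, only PMF1 of these 9 genes fell less than 2-fold. The stretches were picked by exon overlap alone and not by fold change. They are written 5′ to 3′ on the gene's strand, and capitals mark letters of the motifs searched for on both strands, the cell cycle genes homology region (CHR, TTTGAA or TTCGAA), the CCAAT box and an E2F-type match (GCGGGAA or GGCGGGA, which overlap where both occur together). The stretches are those of OIP5 (chr15:41332592-41332691, minus strand), CENPI (chrX:101100958-101101057, plus strand), CENPQ (chr6:49463270-49463369, plus strand), CENPW (chr6:126340015-126340114, plus strand), PMF1 (chr1:156212907-156213006, plus strand), ZWINT (chr10:56361260-56361359, minus strand), SPC24 (chr19:11155783-11155882, minus strand), SPC25 (chr2:168890431-168890530, minus strand) and CENPF (chr1:214603095-214603194, plus strand). The starts used for CENPI, SPC25, ZWINT, SPC24 and PMF1 lie inside the span that the deposited table gives these genes. The start used in these cells may thus be another one. For CENPI, the span begins at base 101098188 and the stretch ends at 101101057, so the stretch may not be its promoter. The same holds for SPC25 on the minus strand, whose span runs up to base 168913371 while the stretch ends at 168890530.
OIP5: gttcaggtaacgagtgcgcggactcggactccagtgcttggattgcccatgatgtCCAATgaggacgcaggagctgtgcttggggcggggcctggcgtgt
CENPI: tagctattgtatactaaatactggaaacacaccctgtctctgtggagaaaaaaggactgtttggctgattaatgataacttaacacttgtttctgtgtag
CENPQ: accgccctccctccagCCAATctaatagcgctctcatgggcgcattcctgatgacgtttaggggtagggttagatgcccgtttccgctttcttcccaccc
CENPW: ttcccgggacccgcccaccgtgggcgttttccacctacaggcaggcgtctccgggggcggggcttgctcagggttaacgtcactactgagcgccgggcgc
PMF1: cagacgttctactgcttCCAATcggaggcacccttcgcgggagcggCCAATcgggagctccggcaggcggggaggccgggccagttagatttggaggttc
ZWINT: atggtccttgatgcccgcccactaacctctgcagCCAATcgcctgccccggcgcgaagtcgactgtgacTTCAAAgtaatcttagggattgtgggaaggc
SPC24: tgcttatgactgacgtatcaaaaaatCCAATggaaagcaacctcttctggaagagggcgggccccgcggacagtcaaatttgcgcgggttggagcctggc
SPC25: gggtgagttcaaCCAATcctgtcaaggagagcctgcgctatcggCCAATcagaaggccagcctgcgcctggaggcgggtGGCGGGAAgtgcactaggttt
CENPF: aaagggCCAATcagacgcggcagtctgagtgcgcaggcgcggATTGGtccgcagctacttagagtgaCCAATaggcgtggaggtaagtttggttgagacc

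Within 250 bases before the start, 19 of the 30 genes held a CCAAT box (63.3%), against 40.6% of 12511 other tested genes with a promoter entry and 32.0% of all 35116 windows in the table. A CHR element was found for 7 genes (23.3%, against 13.5% of the other tested genes and 14.3% of all windows), namely HJURP, CENPA, CENPC, ZWINT, SPC25, SPDL1 and ZW10, and each of them also held a CCAAT box. An E2F-type match was found for 12 genes (40%, against 29.6% of the other tested genes and 15.8% of all windows). Together, CHR and CCAAT were held by 23.3% of the genes and by 5.35% of the other tested genes. The stretches that were printed cover less than these windows: in SPC25 the CHR letters lie 247 bases before the start, and in CENPW the CCAAT boxes lie 224 and 202 bases before it. These are matches of letters and were not tested as sites of a factor.

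All 36 genes had lower transcript levels in PB-treated cells than in the control group. By edgeR's quasi-likelihood test with Benjamini-Hochberg adjustment over 24200 tested genes, 36 of 36 fell at an adjusted p of at most 0.05, where 26.1% of all tested genes fell. Counting as differentially expressed genes (DEGs) those that also changed 2-fold or more (1 on the log2 scale), 22 of the 36 were lower DEGs, against 6.73% of all tested genes, and 0 were higher DEGs, against 5.36%; for genes with a mean of at least 1 FPKM the background of lower DEGs was 5.68%. The median log2 fold change over the 36 genes was -1.10 (range -1.90 to -0.19), and over all tested genes it was 0.011. The largest adjusted p among the 36 was 0.00302 (edgeR, MIS12). Summed over the 36 genes, the level was 873 to 886 FPKM in the control samples and 391 to 398 FPKM in the PB samples.

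In FPKM, every PB sample lay below every control sample for 34 of the 36 genes, against 21.6% of all tested genes, and MIS12 and NSL1 were the exceptions. Permuting the 6 FPKM values of a gene exactly (two-sided) gave p = 0.1 for these 34 genes, the smallest p that 3 against 3 samples allow, and p = 0.2 for MIS12 and NSL1. After division by edgeR's TMM factors, which adjust for library composition and were 0.948 to 0.962 in control and 1.04 to 1.05 in PB samples, the groups were apart for all 36 genes, where 28.3% of all tested genes were. Replicates were close: the coefficient of variation had a median of 2.71% in control and 4.00% in PB samples and was under 10% in both groups for 32 genes, with the largest values for CENPQ in control (9.94%) and PMF1 in PB samples (23.5%). The plot of the level of each gene in each sample shows this spacing.

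**Figure D1:**
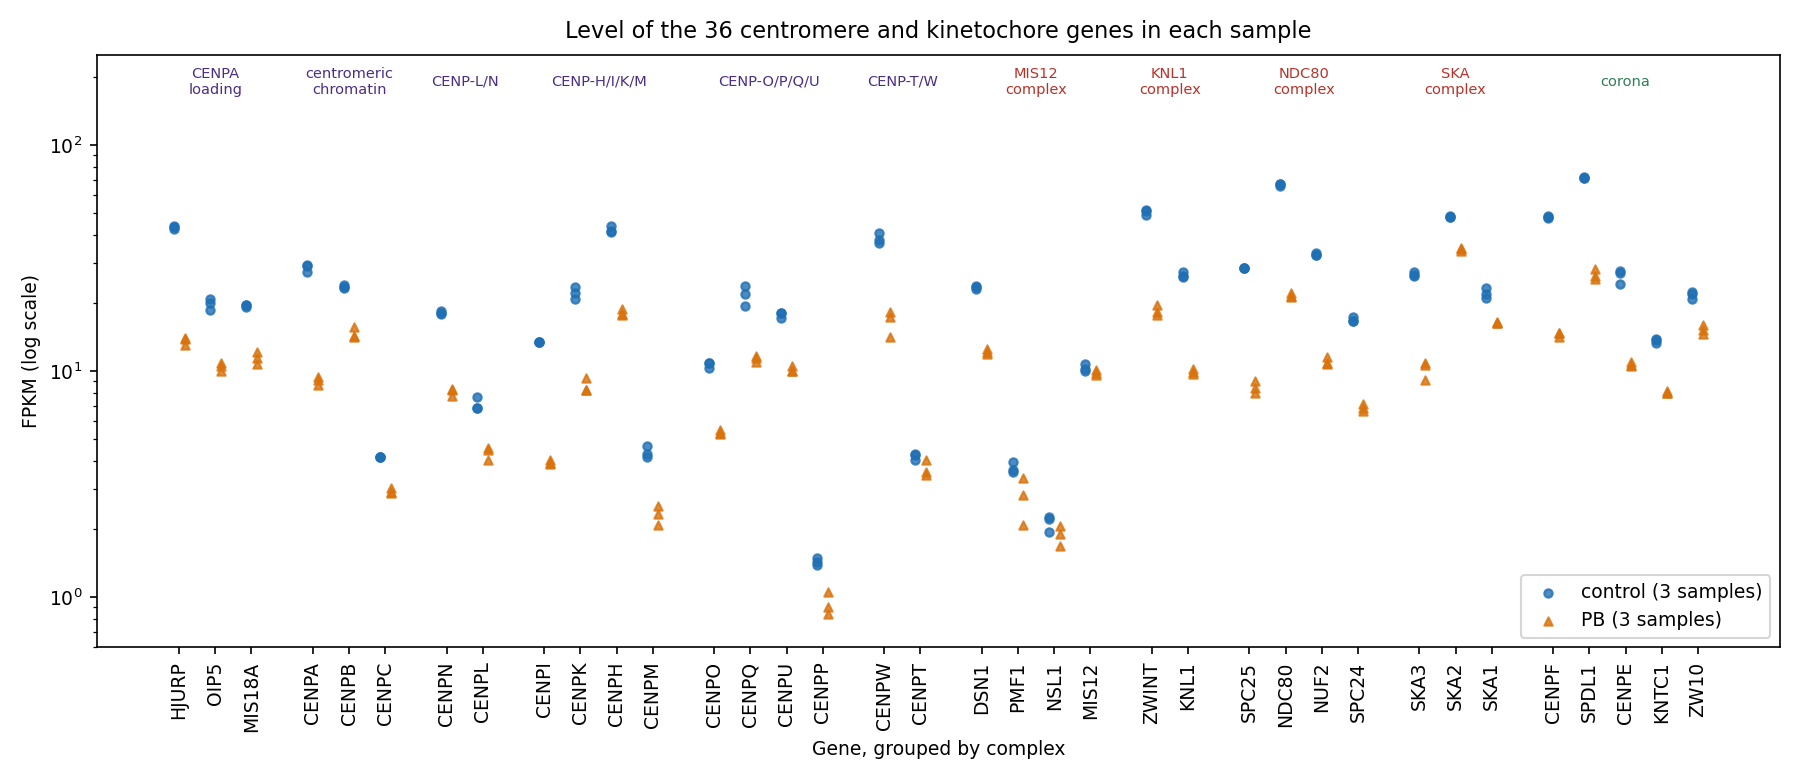
Level of each of the 36 genes in each sample, in FPKM on a log axis, with genes grouped by complex (3 control samples as circles, 3 PB samples as triangles). The groups are apart for 34 genes and overlap for MIS12 and NSL1, and the gap is wide for the NDC80 and KNL1 complexes.

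By fitted fold change, 7 genes fell at least 3-fold (HJURP, CENPA, CENPI, NDC80, NUF2, SPC25 and CENPF) and 15 fell 2-fold to 3-fold. A further 9 genes fell 1.5-fold to 2-fold (MIS18A, CENPB, CENPC, CENPL, CENPP, CENPU, SKA2, ZW10 and KNTC1), and 5 fell less than 1.5-fold (CENPT, MIS12, NSL1, PMF1 and SKA1). All 7 genes of the first band were present above 13 FPKM in every control sample. Genes that fell most were thus found in the inner part, the outer part and the corona.

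**Figure D2:**
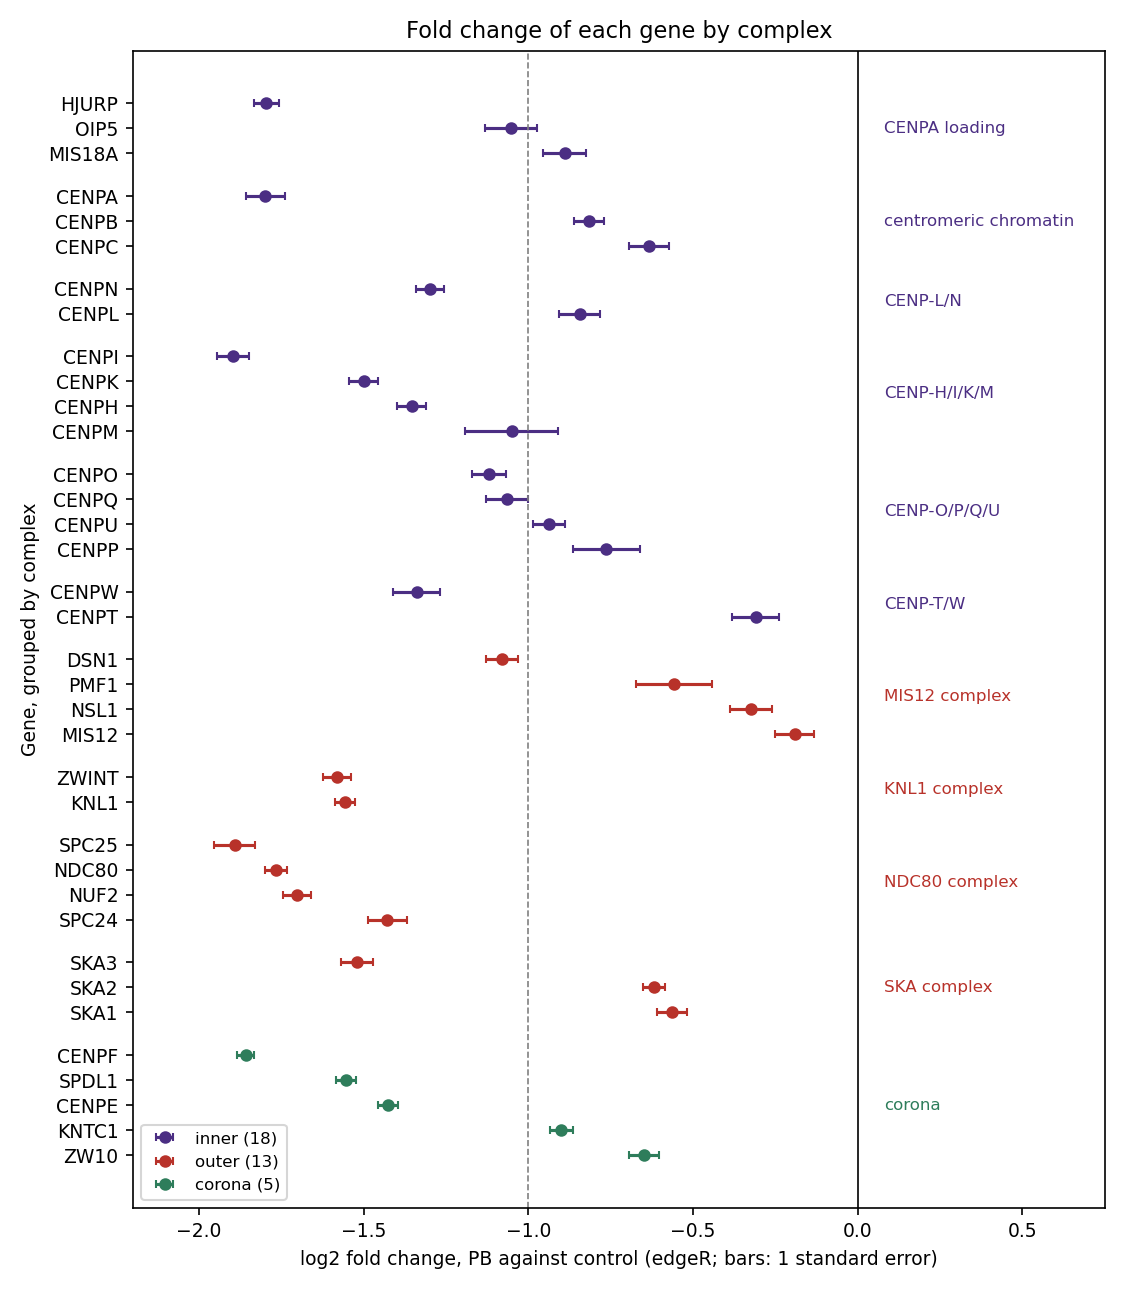
Log2 fold change of PB against control for each gene (edgeR, bars 1 standard error), coloured by part (inner 18 genes, outer 13, corona 5), with the dashed line at -1. All 36 points lie left of 0, the 4 NDC80 complex genes lie between -1.89 and -1.43, and 3 of the 4 MIS12 complex genes lie right of the dashed line.

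Of the 3 genes that load CENPA, 2 were lower DEGs. HJURP (ENSG00000123485, chr2:233833416-233854566), the chaperone that deposits CENPA, was at 42.59, 43.56 and 43.24 FPKM in control samples and at 13.86, 12.95 and 14.02 FPKM in PB samples. The groups were far apart and the log2 fold change was -1.80 (SE 0.038). MIS18A (ENSG00000159055, chr21:32268228-32279049), a subunit of the MIS18 complex that marks centromeres for new CENPA, was at 19.54, 19.13 and 19.57 FPKM in control and at 11.41, 10.77 and 12.18 FPKM in PB samples. It moved least of the 3, with a log2 fold change of -0.89 (SE 0.066), without overlap between groups. OIP5, the other MIS18 subunit, fell by 1.05 on the log2 scale (SE 0.080), but it shares its locus with the antisense gene OIP5-AS1, which had a mean of 4938 counts in control and 6451 in PB samples against 440 control counts of OIP5, and the strandedness of the counting is not given in the sources used here.

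Among the 3 genes of the centromeric chromatin itself, the histone variant stood apart from its binding partners. CENPA (ENSG00000115163, chr2:26764289-26801067) was at 27.30, 29.23 and 29.45 FPKM in control and at 8.62, 9.10 and 9.37 FPKM in PB samples. All PB values were below 10 FPKM and all control values above 27 FPKM, with a log2 fold change of -1.80 (SE 0.059). CENPC (ENSG00000145241, chr4:67468762-67545503), which binds the CENPA nucleosome and the MIS12 complex, was at 4.17, 4.16 and 4.16 FPKM in control and at 2.87, 2.91 and 3.02 FPKM in PB samples. The groups did not overlap, but CENPC moved least of the 3 (log2 fold change -0.63, SE 0.061). CENPB, which binds a DNA box in alpha satellite repeats, fell by 0.82 on the log2 scale (SE 0.046) and was no DEG. CENPA overlaps SLC35F6 on the same strand, the only same-strand overlap of the 36 genes with a gene of at least 60 counts, and SLC35F6 had a log2 fold change of 0.58, in the other direction.

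The genes of the CENP-H/I/K/M group, which joins CENPC and CENP-L/N in the constitutive network, fell together, and all 4 were lower DEGs (median log2 fold change -1.43). CENPI (ENSG00000102384, chrX:101098188-101166126) was at 13.41, 13.40 and 13.41 FPKM in control and at 3.89, 4.04 and 3.92 FPKM in PB samples. Its log2 fold change of -1.90 (SE 0.048) was, with that of SPC25 (-1.89, SE 0.062), at the lower end of the 36 genes, and the 2 were within their errors of each other. The control level of CENPI ranked 27th. CENPM (ENSG00000100162, chr22:41938737-41947152) was at 4.17, 4.64 and 4.29 FPKM in control and at 2.52, 2.08 and 2.32 FPKM in PB samples. It moved least of the 4, at -1.05 (SE 0.141), and it is the only one of the 22 DEGs that was lost when a single library was left out (PB replicate 2). CENPK fell 2.83-fold and CENPH fell by 1.35 on the log2 scale (SE 0.044).

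In the CENP-L/N pair, which reads the CENPA nucleosome, CENPN was a lower DEG and CENPL was not. CENPN was at 17.93, 18.05 and 18.39 FPKM in control and at 7.71, 8.29 and 8.24 FPKM in PB samples, and fell by 1.30 on the log2 scale (SE 0.042). CENPL was at 6.85, 7.65 and 6.82 FPKM in control and at 4.45, 4.56 and 4.04 FPKM in PB samples, and fell by 0.84 (SE 0.062). Neither gene's groups overlapped. CENPN shares bases with CMC2 on the opposite strand, which had a log2 fold change of -0.77.

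The 4 genes of the CENP-O/P/Q/U group, a module that docks regulators such as PLK1, gave the narrowest range among the groups of 4 genes (-1.12 to -0.76), and 2 were lower DEGs. CENPO was at 10.79, 10.80 and 10.29 FPKM in control and at 5.24, 5.50 and 5.33 FPKM in PB samples, a log2 fold change of -1.12 (SE 0.052). CENPP, the lowest of the 36 genes, was at 1.42, 1.39 and 1.49 FPKM in control and at 0.84, 1.05 and 0.90 FPKM in PB samples, a log2 fold change of -0.76 (SE 0.102). In both genes all PB samples were below all control samples. CENPQ (-1.06, SE 0.064) and CENPU (-0.94, SE 0.049) lay on either side of the DEG threshold and close to it.

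The CENP-T/W pair, 2 histone-fold proteins that bind centromeric DNA together, split more than any other pair. CENPW (ENSG00000203760, chr6:126340115-126348875) was at 36.82, 40.60 and 37.87 FPKM in control and at 17.32, 14.19 and 18.17 FPKM in PB samples, and fell by 1.34 on the log2 scale (SE 0.072). CENPT (ENSG00000102901, chr16:67828157-67847811), which also recruits the NDC80 complex, was at 4.25, 4.29 and 4.05 FPKM in control and at 3.56, 3.47 and 4.03 FPKM in PB samples. Its PB replicate 3 reached almost the lowest control value, and its log2 fold change was -0.31 (SE 0.071, edgeR adjusted p = 3.79e-05); limma on log2(FPKM + 0.1) gave -0.18 with an adjusted p of 0.0657. Within each sample, CENPW was 9.16 ± 0.433 (SD, n = 3) times the level of CENPT in control and 4.49 ± 0.388 (SD, n = 3) times in PB samples, per length.

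In the outer kinetochore, the NDC80 complex, the rod that grips the microtubule, fell as a whole: all 4 genes were lower DEGs with a median of -1.73. SPC25 (ENSG00000152253, chr2:168834132-168913371), which anchors the rod to the inner part, was at 28.45, 28.50 and 28.55 FPKM in control and at 8.98, 8.37 and 7.99 FPKM in PB samples (log2 fold change -1.89, SE 0.062). NDC80 itself (ENSG00000080986, chr18:2571557-2616635), the microtubule-binding subunit and the second most abundant of the 36 genes in control, was at 67.31, 65.98 and 67.39 FPKM in control and at 22.11, 21.46 and 21.22 FPKM in PB samples (-1.77, SE 0.033). All PB samples of both genes were far below all control samples. SPC24, which forms the anchor with SPC25, was at 17.34, 16.55 and 16.69 FPKM in control and at 6.85, 7.12 and 6.65 FPKM in PB samples and moved least of the complex (-1.43, SE 0.060). NUF2, the direct partner of NDC80, fell by 1.70 on the log2 scale (SE 0.043).

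The KNL1 complex, the scaffold for checkpoint kinases, fell with it. ZWINT was at 51.26, 51.16 and 48.98 FPKM in control and at 17.59, 19.61 and 18.27 FPKM in PB samples (log2 fold change -1.58, SE 0.041). KNL1 was at 27.38, 26.29 and 26.05 FPKM in control and at 9.86, 10.23 and 9.64 FPKM in PB samples (-1.56, SE 0.031). The 2 genes differed in level but their fold changes were within their errors of each other. All 6 genes of the NDC80 and KNL1 complexes were lower DEGs (median -1.64).

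The MIS12 complex, which ties CENPC and CENPT to the NDC80 and KNL1 complexes, fell less: 1 of 4 genes was a lower DEG and the median was -0.44. DSN1 (ENSG00000149636, chr20:36751791-36773818), the subunit through which Aurora B regulates the link to CENPC, was at 23.56, 23.68 and 23.08 FPKM in control and at 12.11, 12.50 and 11.87 FPKM in PB samples (log2 fold change -1.08, SE 0.050). MIS12 (ENSG00000167842, chr17:5486285-5490814) was at 10.72, 10.19 and 9.98 FPKM in control and at 9.61, 9.82 and 10.13 FPKM in PB samples. The groups of MIS12 overlapped in FPKM, and its fold change of -0.19 (SE 0.059, edgeR adjusted p = 0.00302) was the smallest of the 36 genes; with library size as the only scaling it was -0.06 with an edgeR adjusted p of 0.438.

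NSL1 and PMF1 were low in both groups. NSL1 was at 2.25, 1.93 and 2.21 FPKM in control and at 2.06, 1.90 and 1.68 FPKM in PB samples (log2 fold change -0.32, SE 0.063, edgeR adjusted p = 1.12e-06), and its groups overlapped. PMF1 was at 3.65, 3.94 and 3.57 FPKM in control and at 3.37, 2.08 and 2.83 FPKM in PB samples (-0.56, SE 0.116, edgeR adjusted p = 5.14e-06). The second PB sample of PMF1 was the lowest, and without it the log2 fold change was -0.40, while without the first PB sample it was -0.71. With limma on log2(FPKM + 0.1), neither gene passed (adjusted p = 0.222 for NSL1 and 0.0709 for PMF1).

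The SKA complex, which tracks microtubule ends and stabilises attachments, was split between 1 gene that fell strongly and 2 that fell little. SKA3 (ENSG00000165480, chr13:21153595-21176552) was at 27.36, 26.19 and 26.52 FPKM in control and at 9.11, 10.81 and 10.60 FPKM in PB samples (log2 fold change -1.52, SE 0.048). SKA1 (ENSG00000154839, chr18:50375040-50394168) was at 23.17, 21.10 and 21.96 FPKM in control and at 16.30, 16.29 and 16.47 FPKM in PB samples (-0.56, SE 0.046). SKA2 was at 48.00, 48.19 and 48.59 FPKM in control and at 35.13, 34.48 and 33.97 FPKM in PB samples (-0.62, SE 0.033). No SKA gene's groups overlapped, and SKA2 became the most abundant of the 36 genes in PB samples, after the 4th rank in control.

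Of the 5 corona genes, 3 were lower DEGs (median -1.43). CENPF (ENSG00000117724, chr1:214603195-214664571), a large coiled-coil protein of the corona, was at 47.97, 48.49 and 47.36 FPKM in control and at 14.07, 14.70 and 14.71 FPKM in PB samples (log2 fold change -1.86, SE 0.026). SPDL1, the adaptor that links the RZZ complex to dynein, was at 71.80, 71.38 and 71.15 FPKM in control, the highest level of the 36 genes, and at 28.16, 25.56 and 26.37 FPKM in PB samples (-1.55, SE 0.029). Both genes' PB samples were far below their control samples. The kinesin CENPE fell by 1.43 on the log2 scale (SE 0.031). The RZZ subunits moved less: ZW10 was at 20.89, 22.34 and 21.88 FPKM in control and at 15.98, 14.50 and 15.11 FPKM in PB samples (-0.65, SE 0.047), and KNTC1 fell by 0.90 (SE 0.034).

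Between inner and outer parts, the share of lower DEGs was nearly the same and the median was not. Of 18 inner genes 11 were lower DEGs (61.1%), and of 13 outer genes 8 were (61.5%), beside 3 of 5 corona genes (60%). The median log2 fold change was -1.06 for inner genes (range -1.90 to -0.31) and -1.43 for outer genes (range -1.89 to -0.19), a difference of -0.37 between medians. Summed over genes, the inner level was 339 to 341 FPKM in control and 152 to 158 FPKM in PB samples, and the outer level was 356 to 363 FPKM and 162 to 166 FPKM, so the gap between medians did not show in the sums. In each sample, the median log2 FPKM relative to the control mean of each gene was taken for both parts, and the outer minus inner difference was 0.02, -0.02 and -0.01 in control samples and -0.36, -0.31 and -0.39 in PB samples. The outer median was thus lower than the inner median in every PB sample, but both ranges cover nearly the same values. Since the genes and parts were chosen with results known, no test was made of this difference.

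**Figure D3:**
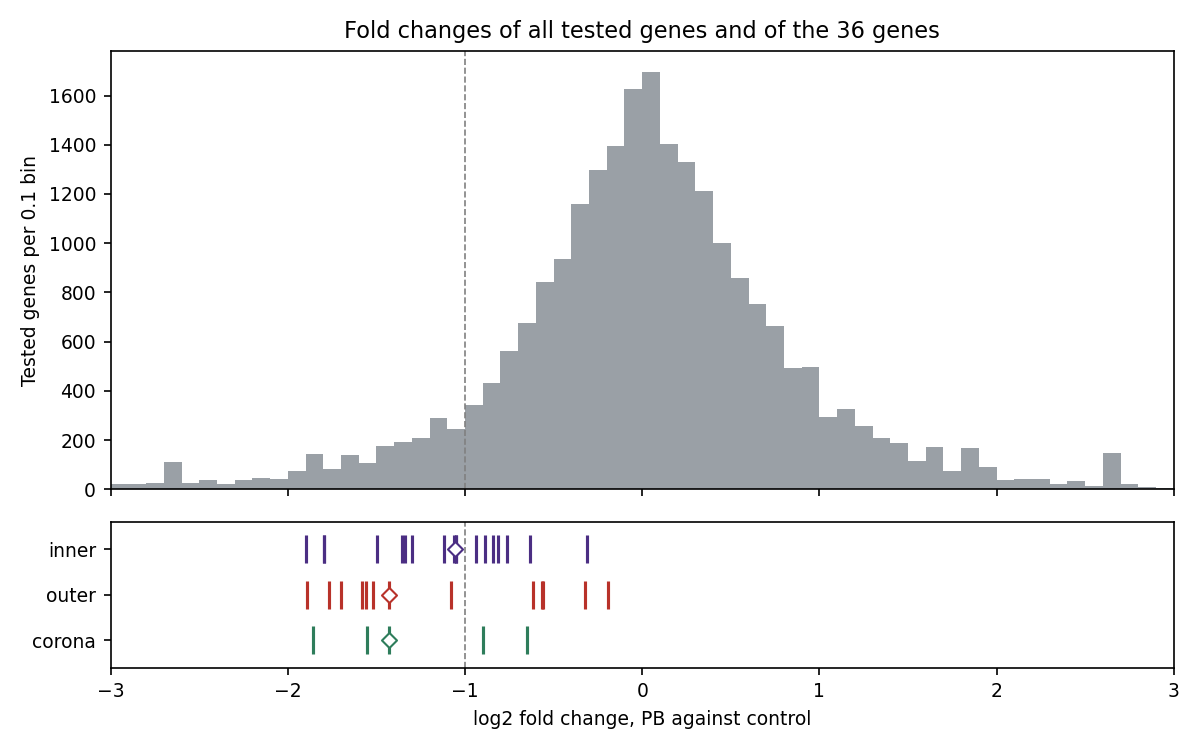
Top, number of tested genes per bin of 0.1 in log2 fold change (PB against control) for 24200 tested genes, of which 493 below -3 and 209 above 3 are not drawn. Bottom, each of the 36 genes as a tick by part with the median as a diamond (inner -1.06, outer -1.43, corona -1.43), all left of 0, with the dashed lines at -1.

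The outer median depended on the complexes in it. The 9 outer genes without the MIS12 complex had a median of -1.56, with 7 lower DEGs, whereas the MIS12 complex had -0.44. By sample, the median log2 level of the NDC80 complex relative to control was -1.59, -1.57 and -1.63 in the PB samples, that of the SKA complex was -0.46, -0.49 and -0.51, and that of the MIS12 complex was -0.12, -0.50 and -0.37. The summed level of the NDC80 complex was 144 to 146 FPKM in control and 46.6 to 48.8 FPKM in PB samples, and that of the MIS12 complex was 38.8 to 40.2 and 26.3 to 27.2 FPKM.

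**Figure D4:**
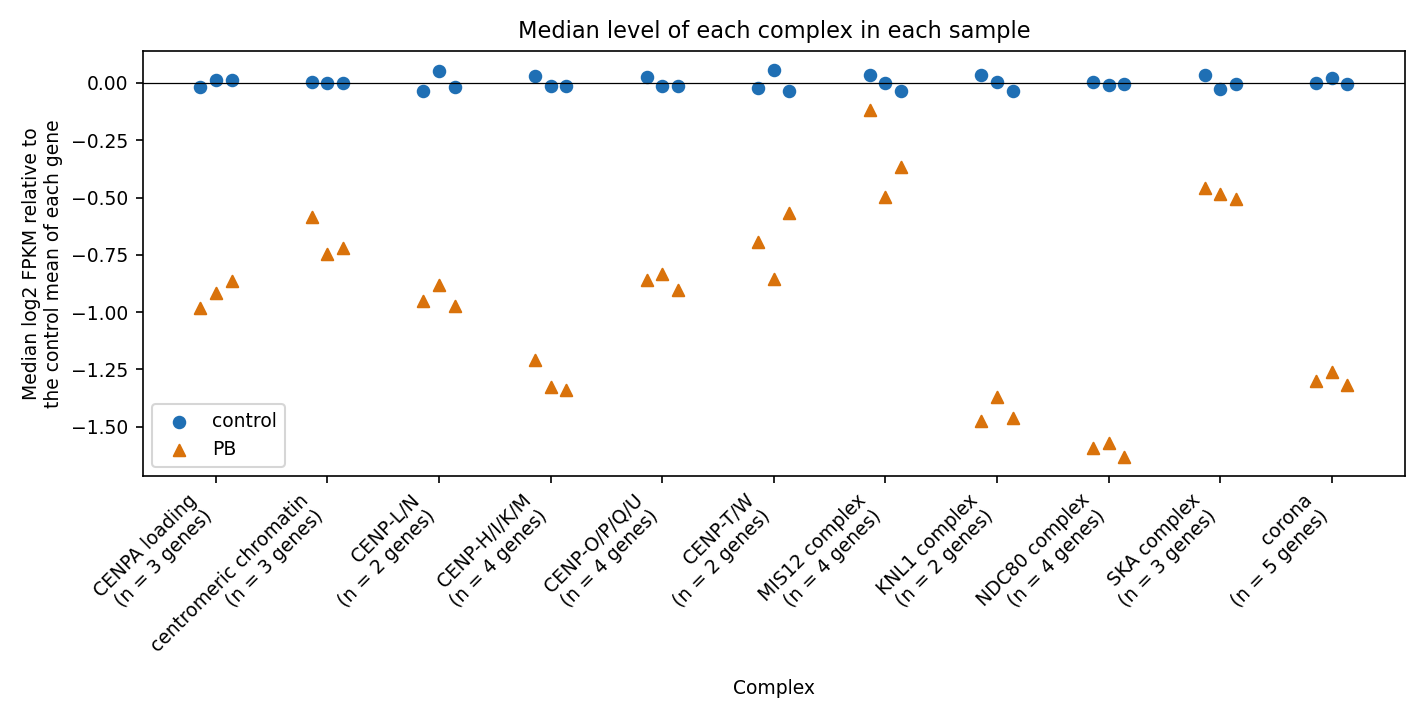
Median log2 FPKM of the genes of each complex relative to the control mean of each gene, for each sample (circles control, triangles PB, 3 samples each, replicates side by side). The PB samples of the NDC80 complex lie between -1.63 and -1.57 and those of the MIS12 complex between -0.50 and -0.12, the widest spread between replicates.

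The balance between partners that work in one structure was compared within samples, where library scaling cancels. These 11 pairs were picked after the values had been seen, so their ratios are given without a test. HJURP was 1.51 ± 0.048 (SD, n = 3) times its cargo CENPA in control and 1.51 ± 0.093 (SD, n = 3) times in PB samples, and NDC80 was 2.05 ± 0.045 times NUF2 in control and 1.96 ± 0.089 times in PB samples. These 2 ratios overlapped between groups. In contrast, NDC80 was 6.50 ± 0.238 times MIS12 in control and 2.19 ± 0.103 times in PB samples, DSN1 was 2.28 ± 0.070 times MIS12 in control and 1.23 ± 0.055 times in PB samples, and NDC80 was 1.39 ± 0.017 times SKA2 in control and 0.625 ± 0.0036 times in PB samples.

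Further ratios moved the same way within the inner part and within complexes. NDC80 was 15.8, 15.4 and 16.6 times its receptor CENPT in control and 6.21, 6.18 and 5.27 times in PB samples. CENPA was 6.88 ± 0.293 times CENPC in control and 3.08 ± 0.065 times in PB samples, and CENPI was 3.22 ± 0.0040 times CENPC in control and 1.35 ± 0.046 times in PB samples. SKA3 was 0.553 ± 0.015 times SKA2 in control and 0.295 ± 0.031 times in PB samples, and SPC25 was 1.69 ± 0.044 times SPC24 in control and 1.23 ± 0.072 times in PB samples (all SD, n = 3). Together with CENPW and CENPT, 9 of the 11 ratios did not overlap between groups. As the pairs were picked with the values seen, this count reflects the choice of pairs. It was not compared with other pairs of genes. Levels here are transcripts per length and say nothing of the amount of protein.

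In control cells the 36 genes spanned from 1.43 FPKM (CENPP) to 71.4 FPKM (SPDL1). Behind SPDL1 came NDC80 (66.9 ± 0.792 FPKM, SD, n = 3) and ZWINT (50.5 ± 1.29), then SKA2 (48.3 ± 0.301) and CENPF (47.9 ± 0.566), which were within their spread of each other, and HJURP (43.1 ± 0.494) and CENPH (42.3 ± 1.45), which were as well. In PB samples SKA2 came first at 34.5 ± 0.581 FPKM, ahead of SPDL1 (26.7 ± 1.33), NDC80 (21.6 ± 0.460) and ZWINT (18.5 ± 1.03), whose order was kept. CENPF moved from rank 5 to rank 10, CENPA from 10 to 22 and SPC25 from 11 to 24, while MIS12 moved from rank 29 to rank 21.

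**Figure D5:**
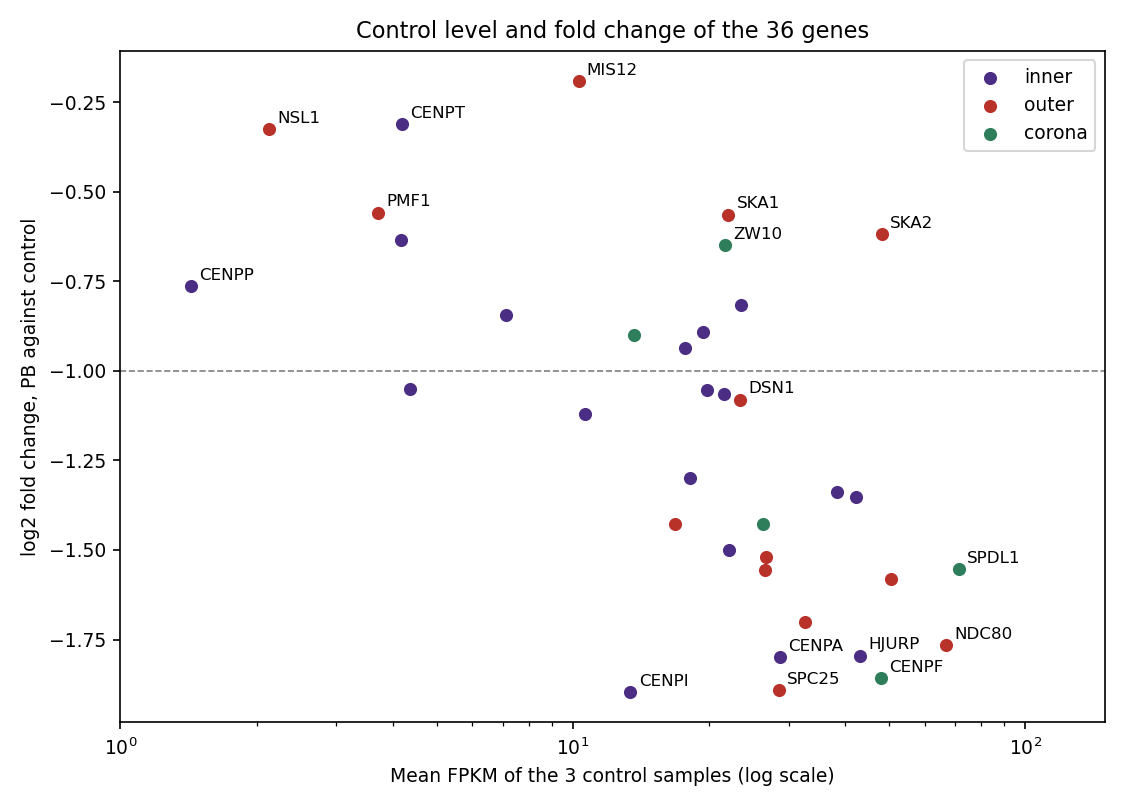
Mean control level (FPKM, log axis) against log2 fold change of PB against control for the 36 genes, coloured by part, with the dashed line at -1. Genes of low level such as NSL1, CENPT and PMF1 lie high in the plot and abundant genes such as NDC80, CENPF and HJURP lie low, with SKA2 and CENPI away from this pattern.

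Across the 36 genes, a higher control level went with a more negative log2 fold change (Pearson's r = -0.64, Spearman's rho = -0.64, n = 36 genes that share the same libraries and are not independent). Over 24200 tested genes Spearman's rho between the same measures was -0.28. The control level enters both measures, so the value is a description. Exonic length showed no such relation, with a Spearman's rho of 0.021 over the 36 genes.

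By promoter letters, the 7 genes with a CHR element had a median log2 fold change of -1.58 (range -1.89 to -0.63) and the 23 without one had -1.08 (range -1.90 to -0.19). For CCAAT boxes the medians were -1.30 (19 genes with) and -1.12 (11 without). For E2F-type matches the order was the other way, with -0.95 (12 genes with) and -1.38 (18 without). CCAAT boxes were held by 63.2% of the 19 lower DEGs with a promoter entry and by 63.6% of the 11 that were no DEGs. E2F-type matches were held by 31.6% of the former and by 54.5% of the latter. These shares rest on few genes and were not tested. They also depend on the start used, by which CENPI counts as a gene without any of these motifs and SPC25 as a gene with all of them.

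Other genes of the pathway were read from the same fit. Of 12 spindle checkpoint and chromosomal passenger genes, 10 were lower DEGs, against 6.73% of all tested genes. None were higher DEGs, against 5.36%, and the median was -1.58. The checkpoint kinase BUB1, which docks on KNL1, had the most negative log2 fold change (-1.97), followed by its relative BUB1B (-1.83) and the passenger subunit CDCA8, also known as Borealin (-1.77). At the other end, TTK, the kinase that starts checkpoint signalling, was at -1.38 and BUB3 at -0.66. MAD1L1, the checkpoint protein that holds MAD2 at kinetochores, rose at adjusted p: it was at 0.39, 0.44 and 0.42 FPKM in control and at 0.77, 0.71 and 0.82 FPKM in PB samples, a log2 fold change of 0.74 at a low level.

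Of 16 other subunits and partners of the kinetochore, 7 were lower DEGs and 0 were higher DEGs, against 6.73% and 5.36% of all tested genes. At adjusted p, 11 fell, against 26.1% of all tested genes, 2 rose and 3 did not pass (median -0.89). The share of all tested genes that rose at adjusted p is not given here. SPAG5, also known as Astrin, fell by 1.88 on the log2 scale, its partner KNSTRN by 1.83 and the histone-fold subunit CENPX by 1.57. BOD1 rose, with a log2 fold change of 0.35, and so did the microtubule plus-end protein CLASP1 at 0.11. NDEL1 did not pass (0.11, edgeR adjusted p = 0.0747), but it did with library size as the only scaling (0.24, edgeR adjusted p = 1.34e-05). CENPS, the partner of CENPX, had a log2 fold change of -0.14 and did not pass either (edgeR adjusted p = 0.376).

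Among 12 chromatin partners of centromeres, such as histone chaperones and heterochromatin proteins, 1 was a lower DEG, a share near the 6.73% of all tested genes, and 0 were higher DEGs, and the median was -0.46. SUV39H2 and SUV39H1, methyltransferases of heterochromatin, fell by 1.06 and 0.96 on the log2 scale, and the heterochromatin protein CBX3 fell by 0.72. CBX5 and DAXX fell by 0.34 and 0.30, while the acetyltransferase KAT7 did not pass (0.02), although it did with library size alone (0.15, edgeR adjusted p = 6.57e-05). At adjusted p, 11 of the 12 fell, where 26.1% of all tested genes fell, and 0 rose. For genes that rose, the share of all tested genes is not given here either, so this 0 cannot be read against it.

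Calls near the thresholds moved with the scaling. TMM put the median of all tested genes at 0.011 and library size alone put it at 0.14, and with library size alone, as with limma on log2(FPKM + 0.1), 17 of the 22 lower DEGs remained and OIP5, CENPM, CENPO, CENPQ and DSN1 were no longer DEGs (7 inner, 7 outer and 3 corona genes left). At adjusted p alone, 35 of the 36 genes passed in edgeR with library size alone and 32 in limma. Of the 36 genes, 14 overlap another gene with at least 60 counts in all, 13 of them on the opposite strand, and reads of such genes cannot be told apart if strand was not used in counting.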

How the data were processed

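RNA-seq of 3 control and 3 PB samples was analysed. The authors deposited raw counts per gene and FPKM values, and 100% of the deposited FPKM values lay within 0.006 of the count scaled by exonic length (an authors' column) and total count. The submitters' processing notes name hg38, HTSeq 0.6.1, DESeq2 and Cufflinks 2.2.1, without their roles; aligner and strandedness are not given in the sources used here. Columns without a matching sample numbered 0.

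Tested were 24200 genes whose FPKM averaged 0.1 or more, by edgeR 4.0.16 in R 4.3.3 (TMM, quasi-likelihood). The common dispersion was 0.000495. edgeR's test took its spread from a pool over genes and not from the single gene, so adjusted p-values are very small and depend on this pooling. SE is the log2 fold change divided by the square root of F. Calls as DEGs required an adjusted p no larger than 0.05 together with a fold change of 2 or more. Alternatives used DESeq2 1.42.0, limma 3.58.1 on log2(deposited FPKM + 0.1 or 1), library size, other filters and thresholds, left-out libraries and a replicate block. The procedure was also run on simulated counts. These used the common dispersion of the fit for every gene, so that run cannot show whether this spread is right for the data.

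The genes, parts and lists were chosen with earlier results of these data known. Named genes were all members, per complex the one that fell most and the one that moved least, and the 3 extremes in each direction of other lists. Promoter sequences came from RefSeq, and gene coordinates from the deposited table.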

Additional observations from a re-analysis of the deposited data

How the results depend on the processing

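The log2 fold change of each of the 36 genes was negative in every alternative, and 459 recomputed single-gene results kept their side of the adjusted p threshold of 0.05 while 9 did not, namely those of MIS12 with library size alone and of CENPT, MIS12, NSL1 and PMF1 with limma at either pseudocount. Lower DEGs numbered 22 with DESeq2, without a filter and with a mean FPKM of at least 1, 17 with library size alone or limma, 31 with a fold threshold of 1.5 and 0 with a log2 threshold of 2 (edgeR; 36 pass at adjusted p). Library size alone gave medians of -0.93 (inner), -1.30 (outer) and -1.29 (corona), limma with 0.1 gave -0.92, -1.28 and -1.29, and limma with 1 gave -0.87, -1.18 and -1.22 with an outer minus inner difference of -0.32. The inner median was -1.03 at a mean FPKM of at least 1 and -1.09 with CENPE and CENPF counted as inner, where the corona median has no value. Leaving out 1 library gave 21 to 22 lower DEGs, 36 at adjusted p and 0 higher DEGs, and medians of -1.09 to -1.06 (inner), -1.45 to -1.41 (outer) and -1.49 to -1.39 (corona), with differences of -0.39 to -0.33.

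Same-numbered samples did not deviate together (r = -0.15, 0.075 and -0.13 over 13067 genes). Control 3 and PB 1 gave r = 0.23. With 3 close samples per group, such values cannot show whether the samples were paired. A fit with the replicate number as a block gave 22 lower DEGs, 36 at adjusted p, 0 higher DEGs, medians of -1.06, -1.43 and -1.42 and a difference of -0.37. Depth limits mainly CENPM, CENPP and PMF1, which had the largest standard errors.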
